A study of Mus musculus with 4 samples.

Results

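The genes described here move mitochondria or divide and join them: the fission genes Mff, Fis1 and Dnm1l, the fusion genes Mfn1, Mfn2 and Opa1, and the transport genes Rhot1, Rhot2 and Trak1. They were chosen by name, with earlier results of these data known. Every probe set whose only symbol in the platform annotation was one of these 9 was taken, which gave 26 of the 34945 probe sets with a single symbol (9 of 18193 genes). Trak2, the paralog of Trak1, was left out of the set and is given for comparison. RNA came from NIH/3T3, a line of mouse embryo fibroblasts, as 2 samples of pseudopodia and 2 of cell bodies, hybridised to 1 Affymetrix Mouse430_2 array per sample. In every sample the cells stood in medium without serum on a porous membrane that carried fibronectin on its underside, extended protrusions through the pores for 1 h, and were fixed with 0.3% formaldehyde for 10 min before crosslinks were reversed for 45 min. In the pseudopodia samples the material above the membrane had been wiped away and the underside was collected, and in the cell body samples the sides were exchanged. The separation is by hand, the line is a single one, and no group without fibronectin is analysed here. Nothing says that the samples of a compartment came from separate cultures, so the p-values cover the spread among these 4 samples, part or all of which may be technical.

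Mitochondria are long tubules whose shape is set by fission and fusion. In fission, Mff and Fis1 sit in the outer membrane by a tail anchor, and Mff recruits the dynamin-related GTPase Drp1, the product of Dnm1l, which constricts the organelle. In fusion, the mitofusins Mfn1 and Mfn2 join outer membranes, and Opa1, a GTPase cut by the proteases Oma1 and Yme1l1, joins inner membranes and shapes cristae. For transport along microtubules, the outer membrane GTPases Miro1 and Miro2 (Rhot1 and Rhot2) bind the adaptors Trak1 and Trak2, which bind kinesin-1 and dynein. The question asked of the arrays is whether these mRNAs take a larger or smaller share of the RNA in protrusions than in cell bodies.

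The values are the authors' deposited probe set intensities, on a linear scale with a floor at 20, and differences are pseudopodia minus cell bodies on the log2(intensity + 1) scale, which understates the change of dim probe sets. The brightest probe set stood for a gene, and each difference was tested by limma over the 11320 genes above an intensity filter of 42.0, the median over non-control probe sets, with Benjamini-Hochberg adjusted p-values. Levels of different probe sets are not comparable with each other. Array medians were 41.2 and 45.6 in pseudopodia and 44.3 and 40.5 in cell bodies, and log2 values correlated over genes at 0.983 within pseudopodia, 0.984 within cell bodies and 0.949 to 0.957 between compartments. For Actb, the 3' control probe set exceeded the 5' one on the log2 scale by 0.56 and 0.65 in pseudopodia and 0.37 and 0.36 in cell bodies. The same value was -0.075 and -0.066 in pseudopodia and -0.095 and -0.098 in cell bodies for Gapdh, and 2.46 and 1.35 in pseudopodia and 2.77 and 3.06 in cell bodies for 18S ribosomal RNA, which ran the other way. The middle probe set of 18S ribosomal RNA read 308 and 1970 in pseudopodia and 172 and 111 in cell bodies, with pseudopodia replicate 2 apart from the rest. The part of these in the differences below was not tested. Of 8 fibroblast markers 7 passed the filter and Thy1 lay at the floor, with summed intensities of 47730 to 48914 in pseudopodia and 61100 to 63963 in cell bodies, sums that bright genes such as Lgals1 and Vim dominate. Of those 7, limma called Col1a1 (-1.33), Pdgfrb (-1.21), Pdgfra (-1.18) and Col1a2 (-0.69) lower in pseudopodia. Of the other markers looked at, 4 of 5 epithelial genes (sums of 2481 to 2598 in pseudopodia and 2791 to 3606 in cell bodies), 1 of 4 haematopoietic genes (135 to 141 in pseudopodia and 143 to 151 in cell bodies) and 0 of 3 muscle genes (92.5 to 124 in pseudopodia and 68.7 to 69.7 in cell bodies) passed, with Krt18 and Myog at the floor on all 4 arrays. Krt14 made up most of the epithelial sums, at 1980 and 1835 in pseudopodia and 2665 and 2093 in cell bodies.

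Among the 9 genes, all of which passed the filter, Mff and Opa1 rose in pseudopodia and 0 fell. The rise was 2.98-fold for Mff and 1.64-fold for Opa1. These 2 of 9 stand beside a background of 5.92% of all tested genes called higher and 8.69% called lower (14.6% in either direction). The genes were chosen with earlier results of these data known, so the shares given here describe the set and do not test it. Differences were above 0 for 8 of the 9, the exception being Rhot2, against 49.7% of all tested genes. The median was 0.36, against -0.0020 over all tested genes. At an unadjusted p under 0.05, limma gave 3 genes higher and 0 lower, Dnm1l being the third. Of all 11320 tested genes, 3553 passed that cut in either direction, so it sets these genes little apart. Both pseudopodia arrays lay above both cell body arrays for 6 of the 9, against 29.5% of all tested genes. They lay below both for 0 of the 9, against 31.4%. These arrays hold bulk extracts, so a difference in how many protrusions carry an RNA and a difference in its amount in each cannot be told apart.

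**Figure D1:**
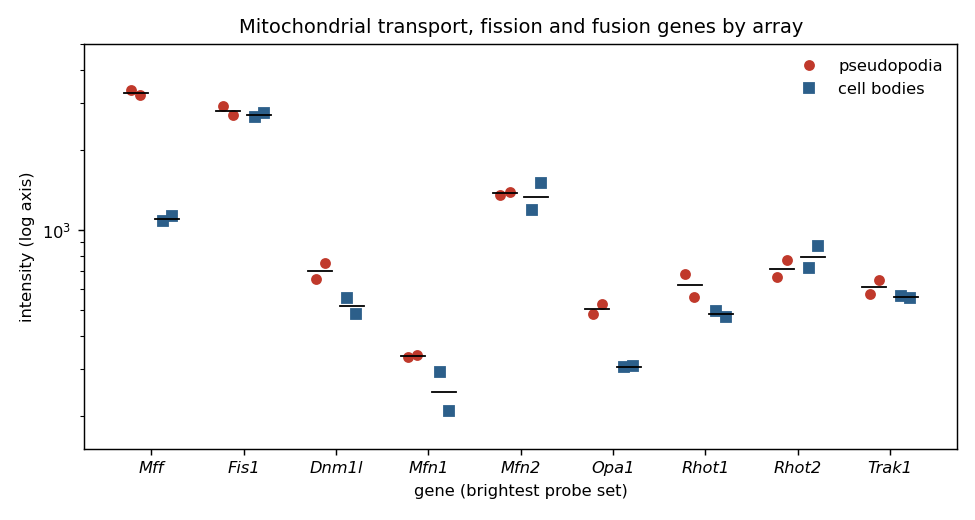
Intensity (log axis) of the brightest probe set of each of the 9 genes on the 2 pseudopodia arrays (red circles) and the 2 cell body arrays (blue squares), with the geometric mean as a bar. The compartments are far apart for Mff, with 3345 and 3210 in pseudopodia against 1077 and 1123 in cell bodies, apart by less for Opa1, and overlap for Fis1, Mfn2 and Rhot2.

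Among the fission genes, the outer membrane receptor Mff differed most. Its brightest probe set, 1456736_x_at, read 3345 and 3210 in pseudopodia and 1077 and 1123 in cell bodies. The compartments were nearly 3-fold apart while arrays of a compartment lay within a few percent of each other. The log2 difference was 1.57 (SE 0.13, adjusted p = 0.0166), which gave Mff rank 31 of 11320 genes by p and rank 42 by the size of the rise. A second probe set, 1456582_x_at, read 1968 and 1983 in pseudopodia and 605 and 638 in cell bodies, a difference of 1.67. With each probe set above the filter tested on its own by limma (22519 in all), both were called, at adjusted p = 0.0241 for each.

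The other Mff probe sets differed by less. Probe set 1451572_a_at read 759 and 616 in pseudopodia and 568 and 455 in cell bodies. These arrays also do not overlap, but the nearest of them lie closer across compartments than the arrays within either, and the log2 difference was 0.43 (SE 0.20, adjusted p = 0.236). The dim probe set 1457371_at read 47.3 and 49.7 in pseudopodia and 34.8 and 52.8 in cell bodies, which overlap, with a difference of 0.17 (SE 0.24, adjusted p = 0.685). By the array maker's naming, an ID that ends in _x_at has some probes that match other sequences as well, and one that ends in _a_at or _s_at has probes shared by several transcripts, of the same gene for _a_at. The call for Mff thus rests on probe sets of the _x_at kind: without the kinds _x_at, _s_at and _a_at the gene was left with the dim probe set and a difference of 0.17 (adjusted p = 0.667). The platform annotation lists a separate source sequence for each of the 4, and RefSeq lists 24 known or predicted transcripts of Mff.

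To ask whether probe sets of a gene differ from each other, the log2 ratio of each further probe set to the brightest was fitted by limma over all 8068 such pairs above the filter, with 3 paralog pairs among them. This test was chosen after the values had been seen. It called 0 pairs of any gene (0%), with 1728 at an unadjusted p under 0.05. Among the 10 pairs within these genes and the 3 paralog pairs, 4 had an unadjusted p under 0.05. For Mff, the ratio of 1451572_a_at to the brightest changed by -1.15 on the log2 scale, lower in pseudopodia (SE 0.20, adjusted p = 0.0988). That of 1457371_at changed by -1.40 (SE 0.23, adjusted p = 0.0926), while that of the other _x_at probe set changed by 0.093 (95% interval -0.26 to 0.44).

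Dnm1l, which encodes Drp1, passed the test at 1428086_at but not at its brightest probe set. Its brightest, 1428087_at, read 651 and 753 in pseudopodia and 553 and 483 in cell bodies. The arrays do not overlap, and the difference of 0.44 (SE 0.16) had an adjusted p = 0.134. Probe set 1428086_at read 688 and 731 in pseudopodia and 286 and 227 in cell bodies. That is a clear gap, 2.77-fold, on the log2 scale 1.47 (SE 0.18, adjusted p = 0.0241 among probe sets). The platform annotation gives the same source sequence for both. The log2 ratio of 1428086_at to 1428087_at was 0.081 and -0.043 in pseudopodia and -0.95 and -1.08 in cell bodies. Only its change between compartments can be read, since the levels belong to different probe sets, and that change was 1.04 (SE 0.14, adjusted p = 0.0807), which misses the threshold over all pairs. With a stricter filter on low values, and in no other alternative, it passed (adjusted p = 0.0423). With a gene's probe sets averaged Dnm1l itself was called, at 0.95 (adjusted p = 0.0226), the only 1 of the 13 alternatives that called the gene. Both remaining Dnm1l probe sets, 1428008_at and 1452638_s_at, lay at the floor on all 4 arrays, so that only an upper bound is known. RefSeq lists 25 known or predicted transcripts of the gene, and the sources used here do not say which of them each probe set reads.

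Fis1, the other tail-anchored fission protein, did not pass the test. Probe set 1416764_at read 2915 and 2706 in pseudopodia and 2660 and 2759 in cell bodies. The arrays overlap, and the log2 difference was 0.052 (SE 0.13, adjusted p = 0.829), with a 95% interval of 0.82-fold to 1.31-fold. Its dimmer probe set, 1443819_x_at, read 1237 and 1225 in pseudopodia and 896 and 1043 in cell bodies. Those arrays do not overlap, with a difference of 0.35 (SE 0.15, adjusted p = 0.220).

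**Figure D2:**
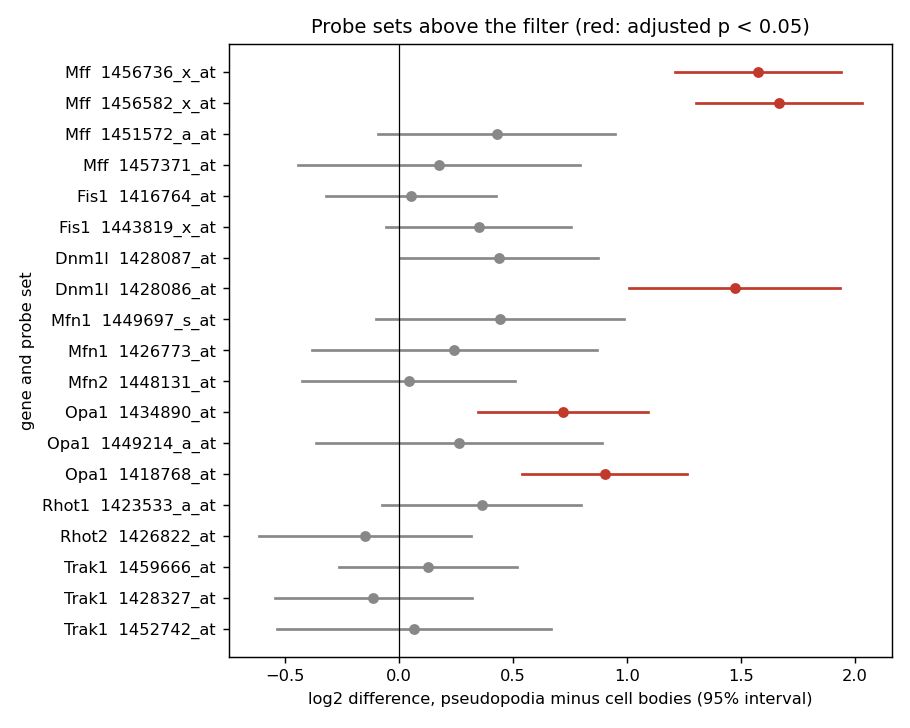
Log2 difference (pseudopodia minus cell bodies) with its 95% interval for the 19 probe sets above the filter, each tested on its own. The 5 in red passed an adjusted p of 0.05 and belong to Mff, Dnm1l and Opa1, and 17 of the 19 points lie above 0. The share of all probe sets above 0 is not given here.

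Of the 26 probe sets, 19 passed the filter and 7 did not, 3 of these at the floor on all 4 arrays. Tested on their own, 5 of the 19 rose and 0 fell, by limma, against a background of 4.3% of probe sets called higher and 7.44% called lower. At an unadjusted p under 0.05 the numbers were 6 and 0. The share of all probe sets at that cut is not given here, and among genes 3553 of 11320 passed it in either direction. In 11 of the 19 both pseudopodia arrays lay above both cell body arrays, against 28.7% of all probe sets above the filter. In the other 8 the arrays overlapped. Probe sets of the same gene share their samples and much of their target, so these are not separate results. All probe sets above the filter pointed the same way in 5 of the 6 genes that had more than 1, and in Trak1 they did not. The share over all genes with more than 1 is not given here.

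Among the fusion genes, the inner membrane GTPase Opa1 rose. Probe set 1434890_at read 483 and 524 in pseudopodia and 304 and 307 in cell bodies. The gap between compartments is several times the spread inside either, and the log2 difference was 0.72 (SE 0.13, adjusted p = 0.0307). The dimmer 1418768_at read 110 and 114 in pseudopodia and 58.8 and 60.6 in cell bodies, a difference of 0.90 (SE 0.14, adjusted p = 0.0298 among probe sets). With probe sets tested on their own, 1434890_at passed as well (adjusted p = 0.0449). Probe set 1449214_a_at, for which the annotation gives the same source sequence as for 1418768_at, read 180 and 121 in pseudopodia and 132 and 114 in cell bodies. Its arrays overlap, with 1 pseudopodia array below 1 cell body array, and its difference was 0.26 (SE 0.24, adjusted p = 0.536). The ratios of 1418768_at and 1449214_a_at to the brightest probe set changed by 0.18 (SE 0.13, adjusted p = 0.474) and by -0.46 (SE 0.28, adjusted p = 0.429). With each array centred on its median, the adjusted p of 1434890_at among probe sets was 0.0518.

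**Figure D3:**
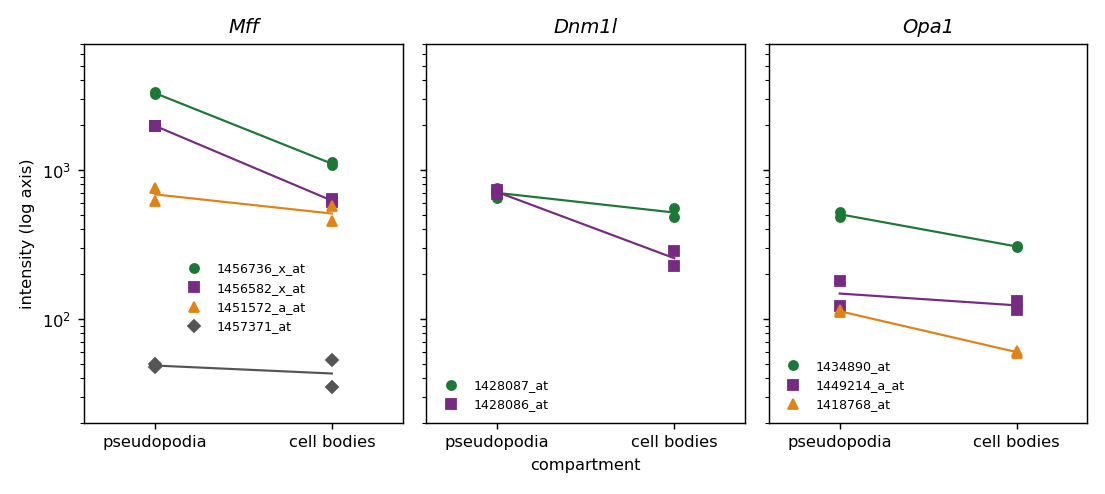
Intensity (log axis) of each probe set above the filter of Mff, Dnm1l and Opa1 on the 2 pseudopodia arrays (left of each panel) and the 2 cell body arrays (right), with lines that join the geometric means. In Mff both _x_at probe sets drop steeply toward cell bodies and the others little, in Dnm1l the line of 1428086_at drops more steeply than that of 1428087_at, and in Opa1 the line of 1449214_a_at is flatter than the others.

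The outer membrane mitofusins did not pass the test. For Mfn1, probe set 1449697_s_at read 333 and 337 in pseudopodia and 290 and 208 in cell bodies. The pseudopodia arrays agree closely and lie above both cell body arrays, which are themselves far apart, and the log2 difference was 0.44 (SE 0.20, adjusted p = 0.206, 95% interval -0.07 to 0.95). Its probe set 1426773_at read 108 and 113 in pseudopodia and 115 and 75.6 in cell bodies, which overlap, with a difference of 0.24 (SE 0.24). The third, 1419997_at, read 31.7 and 27.2 in pseudopodia and lay at the floor in both cell body samples, at least 1.47-fold higher in pseudopodia, but lay under the filter and was not tested. Mfn2, which also tethers mitochondria to the endoplasmic reticulum, read 1356 and 1389 in pseudopodia and 1182 and 1504 in cell bodies at 1448131_at. The pseudopodia arrays fall between the cell body arrays, and the difference was 0.041 (SE 0.17, adjusted p = 0.899, 95% interval 0.76-fold to 1.39-fold). Its other probe set, 1451900_at, was at the floor on 3 of 4 arrays and read 21.6 on pseudopodia replicate 2. The ratio of Mfn1 to Mfn2 changed by 0.40 (SE 0.32, adjusted p = 0.523), so a difference between the paralogs was not shown.

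The transport genes of the set did not pass the test either. Rhot1, which encodes Miro1, read 682 and 560 in pseudopodia and 493 and 469 in cell bodies at 1423533_a_at. The arrays do not overlap, though the pseudopodia arrays are apart by more than the lower of them is from cell bodies, and the log2 difference was 0.36 (SE 0.16, adjusted p = 0.195). Its probe set 1440853_at lay under the filter at 28.9 and 37.6 in pseudopodia and 30.2 and 26.0 in cell bodies, and 1441758_at was at the floor throughout. Rhot2, which encodes Miro2 and has a single probe set, 1426822_at, read 662 and 770 in pseudopodia and 721 and 871 in cell bodies. The arrays overlap, and its difference of -0.15 (SE 0.17, adjusted p = 0.604, 95% interval 0.67-fold to 1.22-fold) was the only one below 0 among the 9. The ratio of Rhot1 to Rhot2 changed by 0.51 (SE 0.25, adjusted p = 0.335).

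Trak1, the adaptor between Miro and the motors, read 573 and 649 in pseudopodia and 565 and 553 in cell bodies at 1459666_at. The compartments do not overlap but nearly touch, and the log2 difference was 0.13 (SE 0.14, adjusted p = 0.596, 95% interval 0.85-fold to 1.40-fold). Probe set 1428327_at read 362 and 428 in pseudopodia and 448 and 406 in cell bodies, with a difference of -0.11 (SE 0.16). Probe set 1452742_at, with the same listed source sequence, read 146 and 101 in pseudopodia and 125 and 107 in cell bodies, with a difference of 0.065 (SE 0.23). Both overlap between compartments, and 1456755_at lay near the floor, at 21.9 and 24.9 in pseudopodia and 25.9 and 20 in cell bodies.

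Its paralog Trak2 read, at 1435016_at, 782 and 926 in pseudopodia and 281 and 259 in cell bodies, a wide gap that passed the test (log2 difference 1.65, SE 0.15, adjusted p = 0.0166). Its other probe set, 1429607_at, lay under the filter, at 20 and 20.4 in pseudopodia and 24.0 and 20 in cell bodies. The log2 ratio of Trak1 to Trak2 was -0.45 and -0.51 in pseudopodia and 1.00 and 1.09 in cell bodies. The sign of this ratio compares different probe sets and carries no meaning, but its change of -1.53 between compartments (SE 0.13) compares each with itself. The adjusted p was 0.0742 over all pairs, which misses the threshold. It was 0.0423 with a stricter filter and 0.0398 without probe sets of the kinds _x_at, _s_at and _a_at. No other alternative called this ratio, and the test was chosen after the values had been seen.

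The tested genes whose 4 array values, centred on their own mean, lay nearest to those of each called gene were found by Euclidean distance among 11319 genes. Nearest to Mff were the potassium channel gene Kcna7 (distance 0.045, log2 difference 1.55), 5730409E04Rik (0.097, 1.60) and Net1, an exchange factor for RhoA (0.11, 1.50). Nearest to Opa1 were the chromatin remodeller Atrx (0.010, 0.73), the kinesin Kif16b (0.023, 0.73) and Hpf1, a partner of PARP enzymes (0.027, 0.70). A likeness over 4 arrays in 2 compartments says little more than that the sizes of the differences are close.

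The wider machinery was taken from 4 lists with 71 genes on the array, of which 62 passed the filter: 5 rose, 2 fell and 55 did not pass. Their median difference was -0.0031, against -0.0020 over all tested genes. By share, 8.06% were called higher and 3.23% lower, beside the 5.92% and 8.69% of all tested genes.

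Of 16 motility adaptors and motors, 2 rose, Trak2 and the kinesin-1 heavy chain Kif5b, and 0 fell, with a median of 0.15. Kif5b read 1212 and 1324 in pseudopodia and 602 and 638 in cell bodies, a log2 difference of 1.03 (SE 0.13, adjusted p = 0.0183). Of its 4 other probe sets above the filter, 1418428_at also passed, at 1.21 (SE 0.19, adjusted p = 0.0305 among probe sets). The others did not: 1418427_at at 0.82 (adjusted p = 0.0707), 1418430_at at 0.27 with overlapping arrays (adjusted p = 0.491), and 1453524_at at -0.46 (adjusted p = 0.237). With a gene's probe sets averaged, Kif5b missed the threshold at 0.58 (adjusted p = 0.0519). The brightest genes of the list were Mtx1, a metaxin of the outer membrane, at -0.079 (adjusted p = 0.752, and 0.041 with quantile normalization), and Armcx2, of the armadillo family that sits on mitochondria, at 0.30 (adjusted p = 0.211). The Armcx2 value is from an _x_at probe set. Its 1437849_x_at had 0.23 and 1415780_a_at, whose arrays overlap, had -0.13 (adjusted p = 0.352 and 0.760 among probe sets).

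Of 13 partners and regulators of fission, 1 rose and 1 fell, with a median of 0.10. Slc25a46, an outer membrane protein that affects mitochondrial shape, read 365 and 375 in pseudopodia and 246 and 216 in cell bodies at its brightest probe set, a log2 difference of 0.68 (SE 0.14, adjusted p = 0.0404). Its other probe set, 1418134_at, read 321 and 264 in pseudopodia and 104 and 91.7 in cell bodies, a larger difference of 1.56 (SE 0.17, adjusted p = 0.0241 among probe sets). Mief2, which encodes MiD49, another receptor of Drp1, went the other way. It read 219 and 220 in pseudopodia and 432 and 353 in cell bodies, a difference of -0.83 (SE 0.16, adjusted p = 0.0333), on a single probe set. The brightest of the list, the ubiquitin ligase Marchf5 and the formin Inf2, had differences of 0.15 (adjusted p = 0.543) and -0.25 (adjusted p = 0.280).

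Of 11 genes of fusion and inner membrane shape, 1 rose and 1 fell, with a median of -0.14. Yme1l1, a protease of the inner membrane that cuts Opa1, read 295 and 303 in pseudopodia and 123 and 134 in cell bodies, a log2 difference of 1.21 (SE 0.13, adjusted p = 0.0166). Its 1423360_at and 1423361_at had no overlap between compartments either, with differences of 0.76 (adjusted p = 0.0518 among probe sets) and 1.59 (adjusted p = 0.0737). Oma1, the other protease of Opa1, also named after its values were seen, had a difference of 0.12 (SE 0.16, adjusted p = 0.673). Miga2, a mitoguardin of the outer membrane that promotes fusion, read 325 and 404 in pseudopodia and 620 and 678 in cell bodies, a difference of -0.84 (SE 0.17, adjusted p = 0.0370). Of its other probe sets, 1454621_s_at and 1433493_at also fell, by 1.00 and by 1.02 on the log2 scale (adjusted p = 0.0276 and 0.0389 among probe sets), while 1420040_at, whose arrays overlap, had 0.15. The brightest of the list were the prohibitin Phb2 at -0.14 (adjusted p = 0.554) and Chchd3, of the complex that organises cristae, at 0.35 (adjusted p = 0.138). Each has another probe set that fell among probe sets: 1460035_at of Phb2, with 142 and 212 in pseudopodia and 713 and 729 in cell bodies, at -2.05 (adjusted p = 0.0241), and the dim 1459143_at of Chchd3, with 41.6 and 30.2 in pseudopodia and 85.3 and 85.8 in cell bodies, at -1.25 (adjusted p = 0.0314). Their remaining probe sets were not called. For Phb2, 1416202_at had -0.18 and 1455713_x_at had -0.086, and 1431241_at of Chchd3 was higher in pseudopodia without overlap, at 0.48.

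Of 22 outer membrane and import proteins, 1 rose and 0 fell by limma, with a median of -0.034. Tomm70a, an import receptor, read 1447 and 1445 in pseudopodia and 684 and 810 in cell bodies at 1426676_s_at, a log2 difference of 0.96 (SE 0.15, adjusted p = 0.0224). Its 1417192_at and 1426675_at had differences of 0.62 and 0.56 (adjusted p = 0.0879 and 0.110 among probe sets), and without probe sets of the kinds _x_at, _s_at and _a_at the gene missed the threshold (0.62, adjusted p = 0.0720). Timm8a1, an import chaperone of the intermembrane space singled out after its values were seen, just missed the threshold at 0.62 (SE 0.14, adjusted p = 0.0503). The import receptor Tomm20 and the channel Vdac1, the brightest of the list, had differences of -0.041 (adjusted p = 0.865) and -0.042 (adjusted p = 0.857), which turned to 0.026 and 0.034 with quantile normalization.

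**Figure D4:**
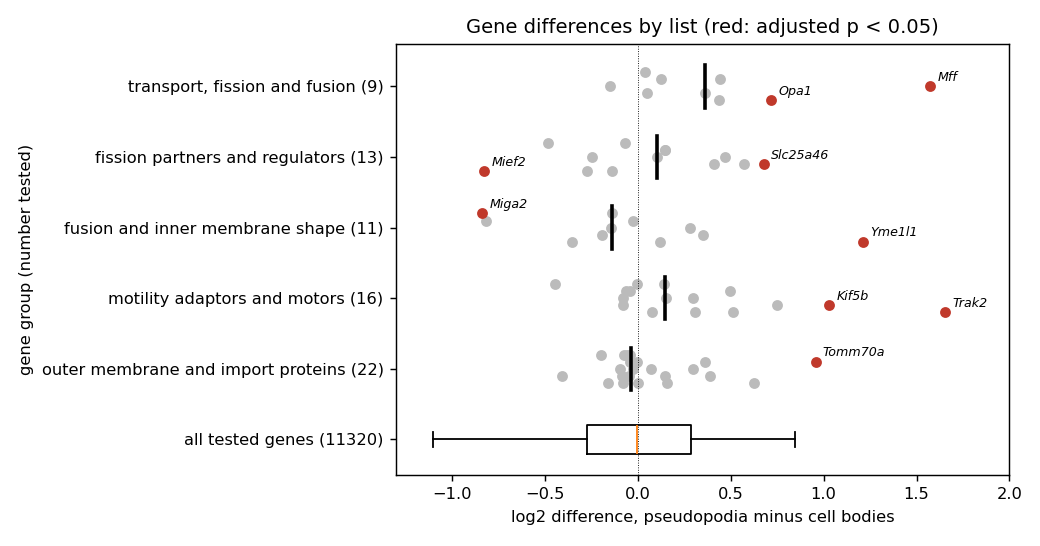
Log2 difference (pseudopodia minus cell bodies) of each tested gene, by group, with the median as a black bar and called genes in red. The bottom row shows all 11320 tested genes as a box of the quartiles with whiskers at the 5th and 95th percentiles. The 9 transport, fission and fusion genes have a median of 0.36, and the medians of the 4 other lists run from -0.14 to 0.15.

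All calls rest on the joint fit of the 4 arrays. When 1 array at a time was left out, which leaves 1 compartment with a single sample, no call held. Over the 13 alternatives, these among them, the log2 difference ran from 0.17 to 1.69 for Mff and from 0.63 to 0.78 for Opa1. Without the filter on low values 0 of the 9 were called, at adjusted p = 0.0610 for Mff and 0.0788 for Opa1.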

How the data were processed

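The authors deposited probe set intensities for 45101 probe sets on 4 arrays, read here from the series' value table. The sources used here do not give their summary or scaling. Per the file headers, the arrays share 1 chip lot, 1 fluidics station, 1 hybridization date and 1 scanner, with 4 fluidics modules, so no recorded batch could be fitted. The log2 values were computed here from the deposited intensities as log2(intensity + 1), without further scaling. The 64 control probe sets were left out. Symbols come from the platform annotation, and gene IDs of 34741 of 34945 one-symbol probe sets matched RefSeq genes of GRCm38.p6. No coordinates are given because no build is named for the array.

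Tests were two-sided, by limma 3.58.1 (lmFit, eBayes) in R 4.3.3, with 2 residual and 2.90 prior degrees of freedom. The gene fit was checked on simulated data with normal noise of a common spread, planted changes of 2 on the log2 scale and no floor. That setting is simpler than these arrays. The number of arrays limits the precision. All 9 genes, every probe set, Trak2, the called genes of the lists (up to 12) and the 2 brightest of each list were named. The genes and lists were chosen with earlier results of these data known. Alternatives changed the filter, scaling, pseudocount, variance prior, probe sets, replicate block and replicates.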

Additional observations from a re-analysis of the deposited data

How the results depend on the processing

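Of the 9 genes, 2 were called higher in the main setting and under 6 of the 13 alternatives, 3 with a gene's probe sets averaged, 1 without probe sets of the kinds _x_at, _s_at and _a_at, and 0 without a filter or with any 1 array left out (0 to 0). A call lower was made for 0 in every setting. Of their probe sets, 5 were called higher in the main setting, 4 with a stricter filter or median centring, 2 without those kinds, and 0 without a filter or with any 1 array left out (0 to 0). Of the other mitochondrial genes, 5 were higher and 2 lower in the main setting, against 9 and 5 with an intensity trend in the variance prior, 7 and 4 with a stricter filter, 6 and 3 with a pseudocount of 16 or the replicate block, 5 and 3 with median centring, 4 and 3 without those kinds, and 0 and 0 without a filter or with 1 array left out (0 to 0). Ratios within genes and between paralogs, a test added after seeing the data, gave 0 calls in the main setting, 2 with a stricter filter and 1 without those kinds. Over all tested genes, 670 were higher and 984 lower in the main setting, 0 and 2 without a filter, which adds genes at the floor to the test, 1081 and 1483 with the trend, 988 and 1214 with the replicate block, and 0 and 0 with 1 array left out. With 1 array left out, the lone sample of its compartment is assumed to vary like the others. The labels number the samples of both compartments 1 and 2 but do not say that a number marks a shared culture. Deviations from the compartment means correlated at 0.34 over genes between same-numbered arrays, and the replicate block left the count of the 9 genes at 2 and of their probe sets at 5. Quantile normalization moved the median difference of all tested genes to 0.053, and 48.2% of its calls were higher, against 40.5% in the main setting.

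Directions turned only for values not called. With quantile normalization, Mtx1, Tomm20 and Vdac1 turned to 0.041, 0.026 and 0.034, and with probe sets averaged, Marchf5, Chchd3 and Tomm20 turned to -0.196, -0.139 and 0.049. With 1 array left out, log2 differences ran from -0.0017 to 0.106 for Fis1 (1416764_at), from -0.132 to 0.215 for Mfn2 (1448131_at), from -0.0904 to 0.0087 for Tomm20, from -0.0556 to 0.540 for 1426773_at of Mfn1, from -0.233 to 0.0063 for 1428327_at and from -0.194 to 0.324 for 1452742_at of Trak1, from -0.0228 to 0.547 for 1449214_a_at of Opa1, and from -0.120 to 0.466 for 1457371_at of Mff. The ratio of 1452742_at to 1459666_at ran from -0.409 to 0.287 and that of Mfn1 to Mfn2 from -0.0105 to 0.815. The causes were not tested.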
